A study of Mus musculus with 2 samples.

Results

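The Myc, Max and Mxd genes were followed in single leukemic promyelocytes of mice after 7 days of retinoic acid or of its vehicle. The 9 genes Myc, Mycn, Mycl, Max, Mxd1, Mxd3, Mxd4, Mxi1 and Mnt were taken by symbol from the 32285 genes listed for both libraries, and all 9 were found. In both groups the bone marrow held leukemia cells transformed by the PLZF/RARA fusion, which joins a zinc finger repressor to the retinoic acid receptor alpha. The retinoic acid group received 0.8 to 1 mg by intraperitoneal injection, and the vehicle group received corn oil with 10% DMSO. The sorted late promyelocytes were negative for Cd34 and positive for FcγR, Gr1, c-Kit and Cd45.2. Their RNA was counted with the 10x Genomics droplet method for 3′ ends, aiming at 6000 cells per library from a cohort of 3 to 5 mice. How many mice gave cells to a library, and the strain, age and promoter behind the fusion, are not given in the sources used here. With 1 library in each group there was no replicate and no test was made.

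Proteins of this network bind DNA as pairs. Myc, Mycn and Mycl bind only when paired with Max, and the pair activates genes for growth, ribosome assembly and nucleotide synthesis at the E-box CACGTG. Mxd1, Mxi1 (also called Mxd2), Mxd3, Mxd4 and Mnt pair with Max at the same sites and recruit Sin3 and histone deacetylases, which represses them. In textbook myeloid differentiation Myc declines and Mxd1 increases as cells leave the cell cycle, while Mxd3 is known from S phase cells.

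Counts are UMIs, each of which marks 1 captured RNA molecule, and levels are UMIs of a gene scaled to a total of 1000000 UMIs in the library or group of cells (CPM). Of 5786 vehicle and 7416 retinoic acid barcodes, 5476 and 7140 were kept, with 99107718 and 110088247 UMIs and medians of 16750 and 14604 UMIs per cell. The libraries shared 11 barcodes. All 10 promyelocyte markers had counts in both libraries, among them Kit at 19.3 and 16.7 CPM and the granule protease Ctsg at 6444 and 5979 CPM. Others of that list differed widely: the proteases Elane and Prtn3 had 62.8 and 246 CPM in vehicle cells and 7663 and 2819 CPM in retinoic acid cells, and Ms4a3 had 850 and 2087 CPM. Mpo, the myeloperoxidase of early promyelocytes, stood at 311 CPM in vehicle cells and at 0.4996 CPM in retinoic acid cells. Markers of mast cells and basophils (5 and 4 of 5 with counts, Prss34 at 0 under retinoic acid) summed to 736 and 66.4 CPM. Eosinophil markers (4 of 5 in each, Ear2 at 0 in the vehicle and Ear1 under retinoic acid) summed to 110 and 28.9 CPM, and megakaryocyte markers to 29.1 and 1.08 CPM. Of the megakaryocyte sums, Itga2b gave 28.9 and 0.491 CPM. Pf4 was at 0.0807 and 0.0636 CPM, Ppbp at 0 and 0.00908 CPM, and Gp9 was higher under retinoic acid, at 0.0807 and 0.518 CPM. B cell, T cell, monocyte and erythroid markers each summed to at most 7.12 CPM, with the T cell markers Cd3e and Cd8a at 0 in both libraries. Stroma and endothelium markers (3 and 2 of 4 with counts, Cdh5 at 0 in both) summed to 80.8 and 73.7 CPM, of which Pecam1 gave 80.7 and 73.6 CPM. A list of 13 genes of secondary and later neutrophil granules, such as Camp, Ngp and Ltf, made up 0.176% of vehicle UMIs and 3.75% of retinoic acid UMIs. Among cells with at least 5000 UMIs, 118 in the vehicle and 11 under retinoic acid were rich in eosinophil marker UMIs. The rest of these deeper cells gave an Mxd1 log2 ratio of 1.46, against 1.49 over all kept cells, as given below. The value of 1.46 also leaves out 194 vehicle and 481 retinoic acid cells with fewer UMIs. The part of eosinophil-rich cells alone was therefore not tested. The part that mast cell, basophil and megakaryocyte markers take in the results was not tested.

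Mxd1 was the member that stood furthest apart between the libraries: its level was 2.81-fold higher under retinoic acid, while Myc was at 0.973-fold of its vehicle level. Mxi1, Max and Mxd3 were 1.29-fold to 1.40-fold higher, and Mxd4 and Mnt were 0.864-fold and 0.854-fold the vehicle level. Of the 11294 genes that reached 1 CPM in a library, 479 (4.24%) were at least 2-fold higher under retinoic acid and 1124 (9.95%) at least 2-fold lower. Among the 9 network genes 1, Mxd1, was at least 2-fold higher and 0 were at least 2-fold lower. 7 members passed the 1 CPM limit. The median log2 ratio of all genes compared was -0.04.

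Of the activators, Myc (ENSMUSG00000022346, GRCm38 chromosome 15, 61985391 to 61990374, plus strand) gave 11833 vehicle and 12794 retinoic acid UMIs. These are 119 CPM (95% Poisson interval 117 to 122) and 116 CPM (114 to 118). The log2 ratio of retinoic acid over vehicle was -0.04 (95% interval -0.08 to -0.00275), and its sign turned with the scaling, to 0.04 with TMM factors and 0.05 with granule genes left out of the total. No direction is therefore given for Myc between whole libraries. Mycn (chromosome 12, 12936093 to 12941914, minus strand) and Mycl (chromosome 4, 122995652 to 123002485, plus strand), the paralogs known from neural and lung tissue, had 0 UMIs in both libraries. A sum of 0 allows up to 3 counts, or 0.0303 CPM for the vehicle cells and 0.0273 CPM for the retinoic acid cells. Myc was thus the sole activator detected at this depth. All intervals reflect the number of UMIs or cells counted, and variation among mice, sorts and preparations comes on top of them. They cover counting error only.

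The shared partner Max (ENSMUSG00000059436, chromosome 12, 76937269 to 76962201, minus strand) stood at 40.6 CPM (39.3 to 41.8) in the vehicle and 52.4 CPM (51.1 to 53.8) under retinoic acid. The log2 ratio was 0.37 (0.31 to 0.43), from 4019 and 5768 UMIs.

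Among the repressors, Mxd1 (ENSMUSG00000001156, chromosome 6, 86647042 to 86669161, minus strand) gave 1073 UMIs in the vehicle and 3347 under retinoic acid. Its level was 10.8 CPM (10.2 to 11.5) and 30.4 CPM (29.4 to 31.5), and the log2 ratio was 1.49 (1.39 to 1.59). Mxi1 (ENSMUSG00000025025, chromosome 19, 53310518 to 53375810, plus strand), the close relative of Mxd1, had 55.4 CPM (53.9 to 56.9) in the vehicle. Under retinoic acid it had 77.4 CPM (75.8 to 79.1), and the log2 ratio was 0.48 (0.43 to 0.53). Mxd3 (ENSMUSG00000021485, chromosome 13, 55325168 to 55329823, minus strand) was at 9.65 CPM (9.04 to 10.3) and 13.1 CPM (12.5 to 13.8), a log2 ratio of 0.44 (0.33 to 0.56). With equal weight for every cell in place of every UMI that ratio was 0.74. The remaining repressors were lower under retinoic acid, by an amount that depended on the scaling. Mxd4 (ENSMUSG00000037235, chromosome 5, 34173883 to 34187720, minus strand) was at 125 CPM (123 to 127) and 108 CPM (106 to 110), a log2 ratio of -0.21 (-0.25 to -0.17), which shrank to -0.12 with granule genes out of the total. Mnt (ENSMUSG00000000282, chromosome 11, 74830920 to 74845725, plus strand), an antagonist found in most tissues, was at 7.86 CPM (7.32 to 8.43) and 6.71 CPM (6.24 to 7.21), a log2 ratio of -0.23 (-0.37 to -0.08). That ratio shrank to -0.15 with TMM factors. It was -0.13 both with equal weight for every cell and with granule genes out of the total. Levels of different genes are not ranked here, since 3′ counts depend on each gene's last exon and poly(A) site.

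**Figure D1:**
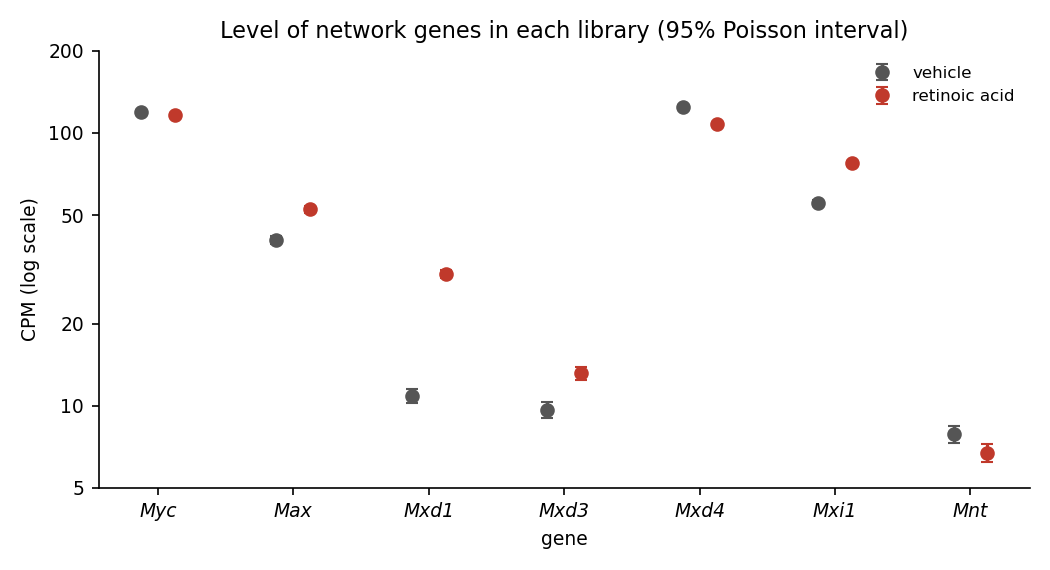
Level of each network gene in CPM (log axis) in the vehicle and the retinoic acid library, with 95% Poisson intervals of the summed UMIs, 1 library per group. Mxd1 shows the widest gap, 10.8 against 30.4 CPM, Myc lies at 119 and 116 CPM, and Mycn and Mycl had 0 UMIs.

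The gap of Mxd1 was also seen cell by cell. After every cell with at least 5000 UMIs was thinned to 5000 (5282 vehicle and 6659 retinoic acid cells, 194 and 481 shallower cells left out), Mxd1 was found in 5.45% of vehicle and 15.0% of retinoic acid cells. The difference was 9.50 percentage points (8.45 to 10.6), and the unthinned shares were 15.6% and 31.8%. Mxi1 was found in 23.9% and 32.6% of thinned cells (56.5% and 63.7% unthinned), Max in 18.4% and 22.3% (48.5% and 50.6%), and Mxd3 in 3.6% and 5.62% (13.1% and 15.8%). Mxd4 was found in 46.1% and 41.6% (82.0% and 72.7% unthinned) and Mnt in 3.96% and 3.26% (13.1% and 9.50%). Myc was found in 36.2% and 37.2% of thinned cells, and unthinned in 65.7% and 59.5%. Averaged over all possible thinnings, an alternative chosen after seeing the data, its shares were 37.7% and 36.5%, so no direction is read from them. Mycn and Mycl were found in 0 cells, which allows up to 0.0568% of vehicle and 0.0451% of retinoic acid cells with a UMI. No cell type that should lack these genes was sorted, so the share given by free RNA in the droplets was not measured for them. For Mxd3, the share in G1 cells (0.108% and 0.217%) bounds it from above.

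The 300 bases around the annotated starts of Mxd1, Mxd3 and Mxd4 are shown because the results below turn on these 3 repressors: Mxd1 over granule classes, Mxd3 and Mxd4 over cell cycle phases. They run 5′ to 3′ from 250 bases before the start to 50 after it, from RefSeq on GRCm38.p6. Capitals mark CCAAT for Mxd1 (chr6:86669110-86669409, minus strand), GGGCGG for Mxd3 (chr13:55329682-55329981, minus strand) and CACGTG for Mxd4 (chr5:34187661-34187960, minus strand).
Mxd1: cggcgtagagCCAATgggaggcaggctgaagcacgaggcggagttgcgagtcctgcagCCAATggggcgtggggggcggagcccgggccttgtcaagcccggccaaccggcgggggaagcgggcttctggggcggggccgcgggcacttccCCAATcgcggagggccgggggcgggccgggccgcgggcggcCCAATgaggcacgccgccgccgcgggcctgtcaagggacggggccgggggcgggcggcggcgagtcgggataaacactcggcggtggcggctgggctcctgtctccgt
Mxd3: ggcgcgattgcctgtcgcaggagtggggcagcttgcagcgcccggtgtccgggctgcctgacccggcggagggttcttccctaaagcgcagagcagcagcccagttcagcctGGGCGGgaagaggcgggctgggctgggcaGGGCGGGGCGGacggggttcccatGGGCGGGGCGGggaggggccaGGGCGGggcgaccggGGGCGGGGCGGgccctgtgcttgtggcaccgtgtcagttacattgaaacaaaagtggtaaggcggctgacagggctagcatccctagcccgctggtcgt
Mxd4: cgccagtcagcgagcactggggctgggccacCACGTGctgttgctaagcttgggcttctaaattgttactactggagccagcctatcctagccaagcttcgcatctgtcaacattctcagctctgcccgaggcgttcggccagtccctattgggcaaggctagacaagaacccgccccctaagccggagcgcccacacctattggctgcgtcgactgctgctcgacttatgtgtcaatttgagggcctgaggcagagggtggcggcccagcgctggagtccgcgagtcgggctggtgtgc
Motifs were searched on both strands and overlapping matches were counted. The Mxd1 window held 4 matches to CCAAT and 6 to GGGCGG, the GC box, and had a GC content of 76.7%. The Mxd3 window held 8 GGGCGG matches, some of them overlapping, and 0 of CCAAT. The Mxd4 window held 1 CACGTG, the E-box of the network's own proteins, 2 CCAAT and 1 GGGCGG. Over 32851 promoters of the same length, CACGTG was found in 7.15%, CCAAT in 37.4%, GGGCGG in 35.7% and AGGTCA, the half-site of retinoid receptors, in 16.3%. Of the 8 members with an entry in the promoter table, Max, Mxd4 and Mnt had a CACGTG, and 0 had AGGTCA in this window. These matches describe letters and not bound sites, and Myc was the member without an entry.

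Cycling state separated the members clearly. By scores on 43 S phase and 54 G2/M phase genes, which hold none of the members, 52.7% of vehicle cells were called G1, 11.6% S and 35.6% G2/M. Under retinoic acid these shares were 27.7%, 25.8% and 46.5%. Median depth differed between phases, at 13852, 18496 and 23670 UMIs in vehicle G1, S and G2/M cells and 10974, 15066.5 and 18515 UMIs in those of the retinoic acid library.

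Mxd3 was nearly absent from G1 cells and present in S and G2/M cells of both libraries. In the vehicle its level was 0.323 CPM in G1 (13 UMIs), 9.46 CPM in S and 17.9 CPM in G2/M (831 UMIs). Under retinoic acid it was 0.471 CPM (10 UMIs), 9.12 CPM and 19.4 CPM (1175 UMIs). The log2 ratio of G2/M over G1 was 5.74 (5.01 to 6.71) and 5.29 (4.48 to 6.42). Within G2/M cells of any granule share, retinoic acid over vehicle was 0.12 (-0.01 to 0.25), against 0.44 over whole libraries. In G2/M cells of a granule class defined below, Mxd3 was instead lower under retinoic acid, and the values are given there. Exons of Mxd3 overlap those of Prelid1 on the other strand, and Prelid1 was at 366, 387 and 417 CPM in vehicle G1, S and G2/M, without the near absence of Mxd3 in G1.

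Mxd1 was higher in G1 than in cycling cells. Its vehicle levels were 14.1, 7.84 and 8.06 CPM in G1, S and G2/M, and its retinoic acid levels 60.4, 21.4 and 21.0 CPM. Retinoic acid over vehicle was 2.09 on the log2 scale in G1 (1.95 to 2.24), 1.44 in S (1.13 to 1.78) and 1.38 in G2/M (1.22 to 1.55). The gap was thus present in each phase, and its G1 interval lay above the other two. Mxd4 was also higher in G1, with 163, 95.6 and 98.8 CPM in the vehicle and 137, 98.5 and 101 CPM under retinoic acid. In S and in G2/M cells its log2 ratio between the libraries was 0.04, against -0.25 in G1. With granule genes out of the total, Mxd4 was at 164 CPM in vehicle and 154 CPM in retinoic acid G1 cells. With that total it was at 95.8 and 105 CPM in S and at 98.9 and 106 CPM in G2/M. The G1 difference thus depended on the total.

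Myc, Max, Mxi1 and Mnt varied less over phases. Myc was at 121, 149 and 111 CPM in vehicle G1, S and G2/M and at 124, 130 and 108 CPM under retinoic acid, with S over G1 at 0.30 (0.22 to 0.38) in the vehicle and 0.07 (-0.000959 to 0.15) under retinoic acid. With granule genes out of the total, retinoic acid G1 and S cells stood at 140 and 139 CPM. Its log2 ratio of G2/M over G1 in the vehicle turned from negative to 0.056 when the 25% of cells with the highest share of cycle genes were set against the lowest 25%, so no direction is given for it. Mxi1 was at 51.1, 50.3 and 60.5 CPM and at 79.0, 73.4 and 78.5 CPM, and its log2 ratio between the libraries was 0.63 in G1, 0.54 in S and 0.38 in G2/M. Max was at 40.8, 37.1 and 41.2 CPM and at 50.4, 49.9 and 54.0 CPM, higher under retinoic acid in each phase. Mnt lay between 5.75 and 9.19 CPM in the 6 groups.

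**Figure D2:**
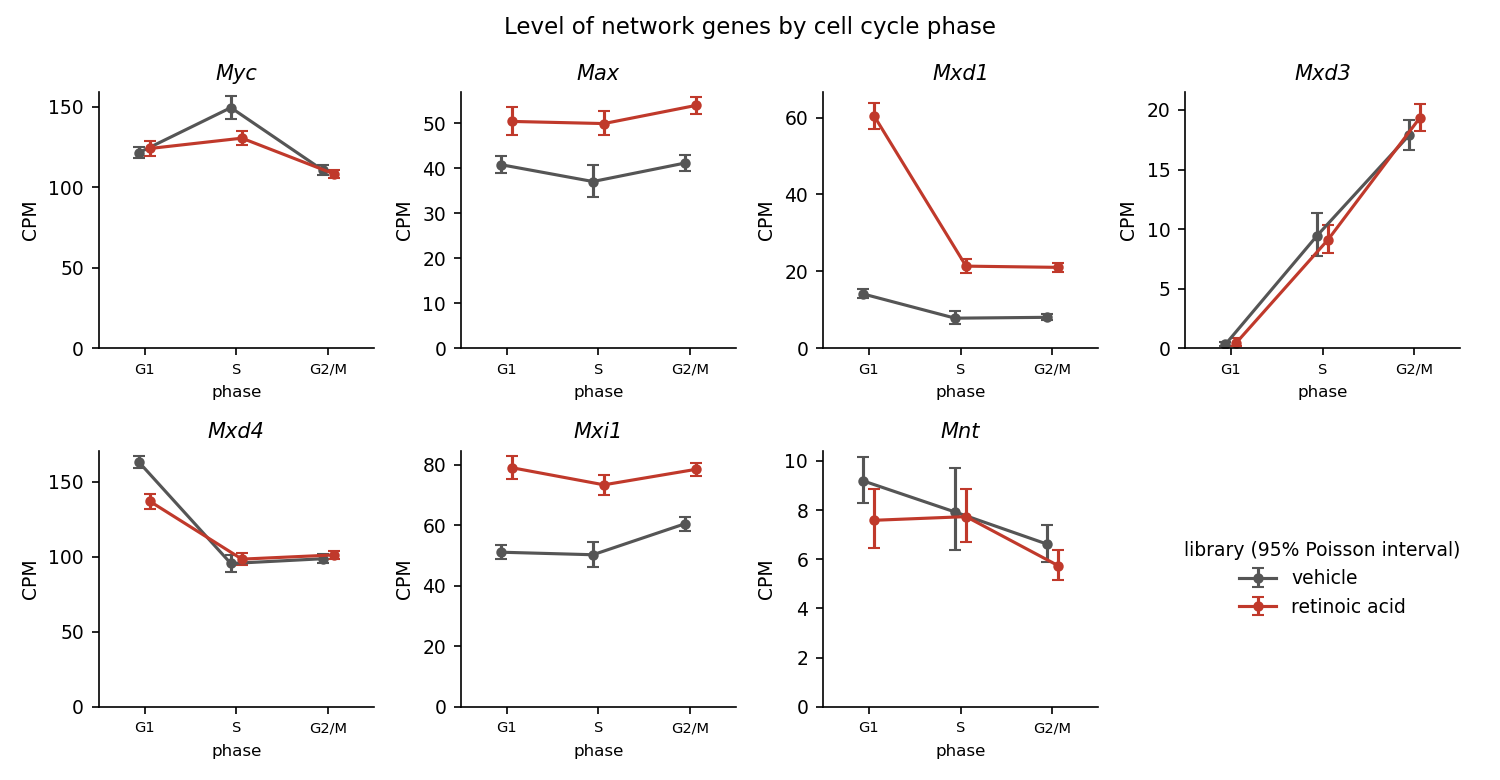
Level of the 7 detected network genes in CPM in cells called G1, S and G2/M of the vehicle and the retinoic acid library, with 95% Poisson intervals. Mxd3 lies under 0.5 CPM in G1 and at 17.9 and 19.4 CPM in G2/M, and Mxd1 is highest in G1 cells of the retinoic acid library at 60.4 CPM.

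Granule genes are known to come on in steps as promyelocytes mature toward neutrophils. Cells were put in fixed classes by the share of their thinned UMIs in the 13 granule genes: under 0.2%, 0.2 to under 1%, 1 to under 5%, and 5% and above. The vehicle held 4420, 744 and 84 cells in the lower 3 classes and 34 in the top class, which is too few to report. The retinoic acid library held 112, 1841, 2645 and 2061 cells in the 4 classes. Their median depths were 18011.5, 18126, 16116 and 11501 UMIs.

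Over the retinoic acid classes Mxd1 was higher and Myc lower where the granule share was higher. In order of rising share Mxd1 had 12.2, 15.0, 21.5 and 62.0 CPM, and Myc had 134, 134, 125 and 78.7 CPM. The lowest of these classes, with 112 cells and 26 Mxd1 UMIs, carried eosinophil markers at 925 CPM, against 7.34 CPM in the next. Between the 0.2 to under 1% class and the top class the log2 ratio was 2.05 (1.90 to 2.19) for Mxd1 and -0.76 (-0.84 to -0.69) for Myc. Most of both differences lay between the upper 2 classes. With granule genes and S100a8 and S100a9 left out of the total, Myc differed by -0.50 and Mxd1 by 2.31. In the vehicle, Mxd1 was at 9.50, 11.7 and 36.0 CPM over its 3 classes and Myc at 121, 113 and 87.0 CPM.

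The libraries were also compared within a granule class. In the 0.2 to under 1% class, where 461 of 744 vehicle and 394 of 1841 retinoic acid cells were in G1, the Mxd1 log2 ratio between the libraries was 0.36 (0.09 to 0.64). Within phases of that class it was 0.70 (0.29 to 1.13) in G1, 0.91 (-0.00499 to 2.15, on 9 vehicle UMIs) in S and 0.34 (-0.09 to 0.81) in G2/M. The median granule share of the G1 cells was 0.28% in the vehicle and 0.58% under retinoic acid. In the 1 to under 5% class Mxd1 was lower under retinoic acid, at -0.76 (-1.16 to -0.29), on 84 vehicle cells. Myc was higher under retinoic acid in the 0.2 to under 1% class, by 0.24. In G1 cells of that class Myc was at 180 CPM under retinoic acid and 110 CPM in the vehicle, a log2 ratio of 0.71 (0.57 to 0.85), while in S cells it was -0.04 (-0.25 to 0.19) and in G2/M cells 0.14 (-0.000272 to 0.29). Marker levels of other cells differed there too: mast cell and basophil markers summed to 79.6 CPM in the retinoic acid and 706 CPM in the vehicle G1 cells, and eosinophil markers to 6.96 and 151 CPM. Their part in the difference was not tested.

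Mxd3 was also higher in the top class than in the 0.2 to under 1% class, while Mxi1, Max, Mxd4 and Mnt differed by less than 0.4 on the log2 scale. Leaving granule genes out of the total raised this contrast for every member. Mxd3 was at 9.39, 8.43, 13.7 and 19.0 CPM over the retinoic acid classes, a log2 ratio of 1.17 (0.96 to 1.39) between those classes and of 1.44 with that total. In G2/M cells of the 0.2 to under 1% class it was at 12.2 CPM under retinoic acid and 21.2 CPM in the vehicle. That log2 ratio was -0.80 (-1.14 to -0.44), and in S cells it was -1.13 (-2.05 to -0.05, on 13 vehicle UMIs). Over all phases of that class the levels were 8.43 CPM (7.49 to 9.45) and 9.23 CPM (7.60 to 11.1), with overlapping intervals. The median granule share of these G2/M cells was 0.58% and 0.26%. Mxi1 was at 54.5, 70.1, 80.6 and 83.2 CPM and in the vehicle at 54.4, 58.3 and 81.0 CPM, and the libraries differed by -0.01 in the 1 to under 5% class. Its contrast between the classes was 0.25 (0.16 to 0.33), and 0.51 with that total. Max was at 53.5, 55.1, 52.1 and 48.8 CPM, a log2 ratio of -0.17 that turned to 0.09 with that total. Mxd4 was at 124, 118, 108 and 92.3 CPM, a log2 ratio of -0.35 that shrank to -0.08 with that total. Mnt lay between 6.24 and 7.51 CPM in the 4 classes, and its contrast was 0.07 (-0.21 to 0.36), and 0.34 with that total.

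**Figure D3:**
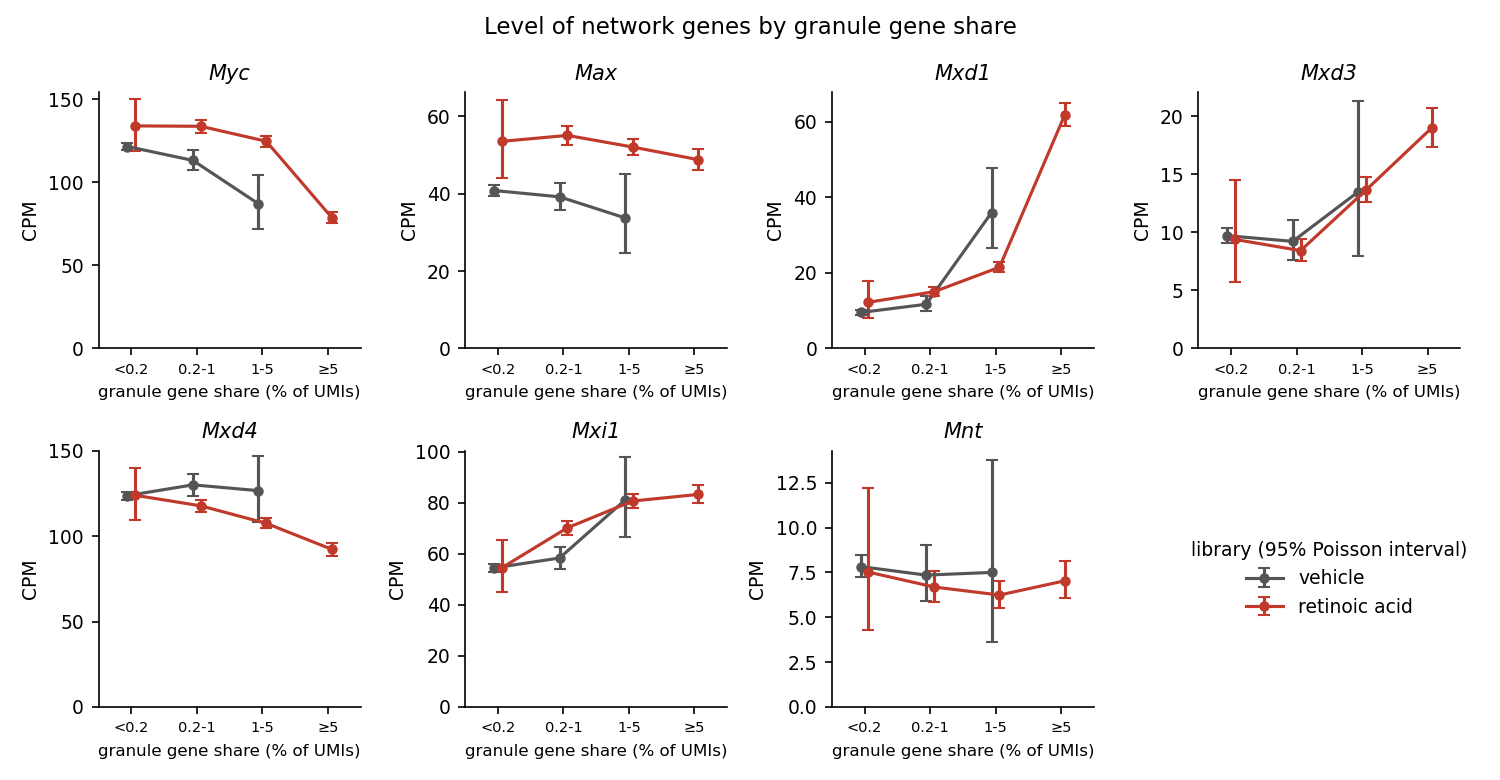
Level of the 7 detected network genes in CPM over classes of granule gene share in the vehicle (3 classes) and the retinoic acid library (4 classes), with 95% Poisson intervals. In the retinoic acid library Mxd1 goes from 12.2 to 62.0 CPM and Myc from 134 to 78.7 CPM. The lowest class of that library holds 112 cells, with eosinophil markers at 925 CPM.

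Both contrasts had their largest values in G1, where the top class also held the highest median granule share, 13.9% against 10.1% in S and 8.40% in G2/M. Among G1 cells of the retinoic acid library, Mxd1 was at 21.6 CPM in the 0.2 to under 1% class (394 cells), 31.0 CPM in the 1 to under 5% class (575 cells) and 115 CPM in the top class (846 cells). Myc in the same cells was at 180, 146 and 63.8 CPM. The log2 ratio of the top class over the 0.2 to under 1% class was 2.41 (2.14 to 2.70) for Mxd1 and -1.49 for Myc in G1. In S cells these were 1.69 and -0.59, and in G2/M cells 1.34 and -0.55, the same directions. With granule genes out of the total, the Myc contrast was smaller in each phase. Myc was then at 182 CPM in the 0.2 to under 1% class and 84.8 CPM in the top class in G1. In S it was at 141 and 111 CPM, and in G2/M at 121 and 94.2 CPM. Mxd1 in G1 was then at 21.8 and 153 CPM. Mxd1 was found in 42.7% of thinned top-class G1 cells and Myc in 22.1%. The median mitochondrial share was 1.41% in G1 cells of the 0.2 to under 1% class and 0.98% in those of the top class. Without cells of at most 0.1% mitochondrial UMIs, the granule contrast over all phases was 2.05 for Mxd1 and -0.76 for Myc, as with them. Mxd3 followed granule share inside the cycling phases: in G2/M cells it was at 12.2 CPM in the 0.2 to under 1% class and 35.1 CPM in the top class, a log2 ratio of 1.52, and in S cells the log2 ratio was 1.82. The median share of S and G2/M list genes in those G2/M cells was 1.28% and 1.48%.

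Mxd1 and Myc counts of the same cells were then set against each other as Mxd1 UMIs per 100 Myc UMIs, a ratio whose total cancels and which is compared between cells, not between genes. It was 9.07 (8.51 to 9.65) in the vehicle and 26.2 (25.2 to 27.2) in the retinoic acid library. In retinoic acid G1 cells it was 12 (9.86 to 14.5), 21.3 (18.3 to 24.6) and 180 (162 to 201) over the upper 3 granule classes. In S cells it was 8.68, 12.6 and 42.3, and in G2/M cells 12.1, 18.4 and 44.9. Vehicle G1 cells had 9.94, 12.1 and 72.9 over their 3 classes, the last with an interval of 45.8 to 115. In the 0.2 to under 1% class, G1 cells of the libraries thus had ratios of 12.1 and 12 with overlapping intervals, Mxd1 and Myc both being higher under retinoic acid there. In S cells of that class the vehicle ratio was 4.31 (1.94 to 8.33, on 9 Mxd1 UMIs), against 8.68 (7.00 to 10.7) under retinoic acid. Of the 17 groups by library, phase and class, the top class of retinoic acid G1 cells had the highest ratio. The vehicle top class, with 34 cells of which 30 were in G1, was too small to be among these groups.

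**Figure D4:**
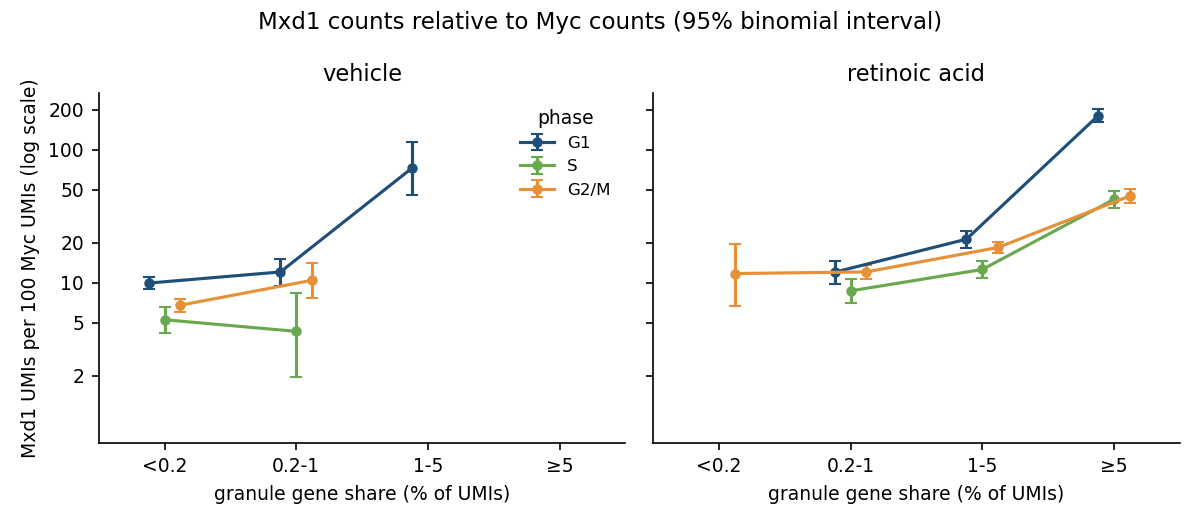
Mxd1 UMIs per 100 Myc UMIs (log axis) by granule class and phase in the vehicle and the retinoic acid library, with 95% intervals from the counts. G1 cells with a granule share of 5% and above reach 180, against 12 in the 0.2 to under 1% class.

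Detection of Myc was also compared between cells with and without an Mxd1 UMI. In top-class G1 cells of the retinoic acid library, Myc was found in 16.9% (13.2 to 21.2) of 361 cells with an Mxd1 UMI and in 26.0% (22.1 to 30.1) of 485 cells without, at 5000 UMIs per cell. In top-class S cells the shares were 35.7% and 32.1%, and in G2/M cells 26.7% and 27.1%, with overlapping intervals. In the 0.2 to under 1% class of that library, all phases together, the shares were 48.6% with Mxd1 and 43.4% without. In the 1 to under 5% class they were 39.4% and 41.0%. G1 cells alone gave 58.5% and 49.9% in the former class and 39.0% and 45.8% in the latter, with overlapping intervals. Vehicle cells of all phases gave 25% (20.1 to 30.4) of 288 cells with Mxd1 and 36.9% of 4994 cells without. Vehicle G1 cells of the under 0.2% class showed a gap too. Myc was found there in 23.8% (16.7 to 32.2) of 126 cells with Mxd1 and 38.7% (36.6 to 40.8) of 2117 without. For Max, the shared partner, the shares of Myc-positive cells with and without a Max UMI were 37.3% and 36.0% over all vehicle cells and 38.8% and 36.7% over all retinoic acid cells. In top-class G1 cells they were 18.1% (13.1 to 24.1) and 23.4% (20.1 to 26.8). Other groups went the other way, with overlapping intervals. The shares with and without Max were 37.2% and 31.7% in top-class S cells and 33.8% and 25.3% in top-class G2/M cells. In vehicle G1 cells of the under 0.2% class they were 42.7% and 36.6%.

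Vehicle cells were also divided by Cpa3, a mast cell and basophil protease, and Mpo. Over cells with both (528), Cpa3 only (2532), Mpo only (623) and neither (1599), Myc was at 130, 115, 130 and 119 CPM and Mxd1 at 9.82, 10.3, 7.95 and 12.2 CPM. Mxd3 was at 9.73, 7.34, 11.3 and 12.4 CPM and Mxd4 at 120, 134, 111 and 118 CPM. The share of S and G2/M cells differed alongside, at 52.8%, 32.7%, 72.2% and 58.7%. Cells with Cpa3 only thus had the lowest Mxd3, the highest Mxd4 and the smallest cycling share. Mxi1 was lowest there as well, at 49.7 CPM against 58.2 to 60.8 CPM.

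Genes with the most similar patterns were sought over the 17 groups of cells by library, phase and granule class that held at least 50 cells, among 5548 genes that reached 20 CPM in a library. The measure was Pearson's r of log2(CPM + 1), and groups of 1 library share that library and its depth, so r is a description. Nearest to Mxd1 were Vsir (r = 0.97), an immune checkpoint receptor, Ifi27l2a (0.97), an interferon-inducible gene, and Rhou (0.96), a small GTPase. Nearest to Mxd3 were Spc25, Ccnf and Ndc80 (each 0.97), of which Spc25 and Ndc80 encode parts of the kinetochore, and Ndc80 is in the G2/M list. Nearest to Myc were Cox6a1 (0.92) and Cox7b (0.91), subunits of cytochrome c oxidase, and Akap1 (0.90), a mitochondrial anchor protein. Mxi1 was nearest to Med31 (0.96), Pbx2 (0.95) and Snx11 (0.94). Max was nearest to Upf2 (0.92), Pik3r1 (0.91) and Atad2b (0.91), and Mxd4 to Tnfrsf13b (0.91), Uqcrh (0.91) and Ebpl (0.90). Among the members themselves, r was -0.68 for Myc with Mxd1, 0.73 for Mxd1 with Mxi1 and -0.88 for Mxd3 with Mxd4.

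Most genes around and below the network lay within 2-fold between the libraries. Of 21 further partners and regulators at 1 CPM or more, 0 were 2-fold higher or lower and the median log2 ratio was -0.10, beside -0.04 over all genes. Aurka, a mitotic kinase, was at 30.4 and 43.5 CPM (log2 ratio 0.51), Mlx at 37.5 and 53.1 CPM (0.50) and the deacetylase Hdac1 at 97.2 and 118 CPM (0.28). Trrap, a cofactor of Myc, was at 28.2 and 20.8 CPM (-0.44), the kinase Pim1 at 242 and 186 CPM (-0.38) and Mga, a Max partner, at 38.5 and 31.8 CPM (-0.27).

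Textbook Myc targets were grouped by function. Of 28 ribosome biogenesis genes 0 passed 2-fold, 21 had a ratio below 0 and 7 above, and the median was -0.21. Nop2, an rRNA methyltransferase, was at 25.7 and 16.7 CPM (-0.62), Ppan at 102 and 68.0 CPM (-0.58) and Noc4l at 56.0 and 39.7 CPM (-0.50), while Ddx18 (0.19), Ddx21 (0.06) and Ncl (0.04) were at the other end. Under TMM scaling this median was -0.13, while the median over all genes was 0.04 in place of -0.04. Of 14 nucleotide and polyamine genes 0 passed 2-fold and the median was -0.01, or 0.07 under TMM scaling. Srm, spermidine synthase, was at 245 and 153 CPM (-0.68), and Shmt2 (-0.44) and Cad (-0.31) were lower too. Odc1, the ornithine decarboxylase that starts the same polyamine pathway, was at 141 and 180 CPM (0.35), beside Ppat (0.41) and Mthfd2 (0.32).

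Of 18 growth and cell cycle targets 1 was at least 2-fold higher and 1 at least 2-fold lower, shares near those of all genes (4.24% and 9.95%), with a median of -0.32. Cdc25a, the phosphatase that activates cyclin-dependent kinases, gave 1681 and 5116 UMIs, 17.0 and 46.5 CPM (log2 ratio 1.45). Ccnd2, cyclin D2, gave 4171 and 537 UMIs, 42.1 and 4.88 CPM (-3.11). Hspe1 (-0.91) and Ldha (-0.60), lactate dehydrogenase, were lower, and Eif4e (0.32) and Tfrc (0.30), the transferrin receptor, higher. Of 6 genes known to be repressed by Myc, 0 were 2-fold higher and 2 were 2-fold lower, beside 4.24% and 9.95% of all genes. Ndrg1 was at 47.5 and 21.7 CPM (-1.13), and Cdkn2b, an inhibitor of cyclin-dependent kinases named here after its values were seen, was at 7.90 and 0.263 CPM (-4.88). Cdkn1a, the inhibitor p21, was at 139 and 120 CPM (-0.21).

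**Figure D5:**
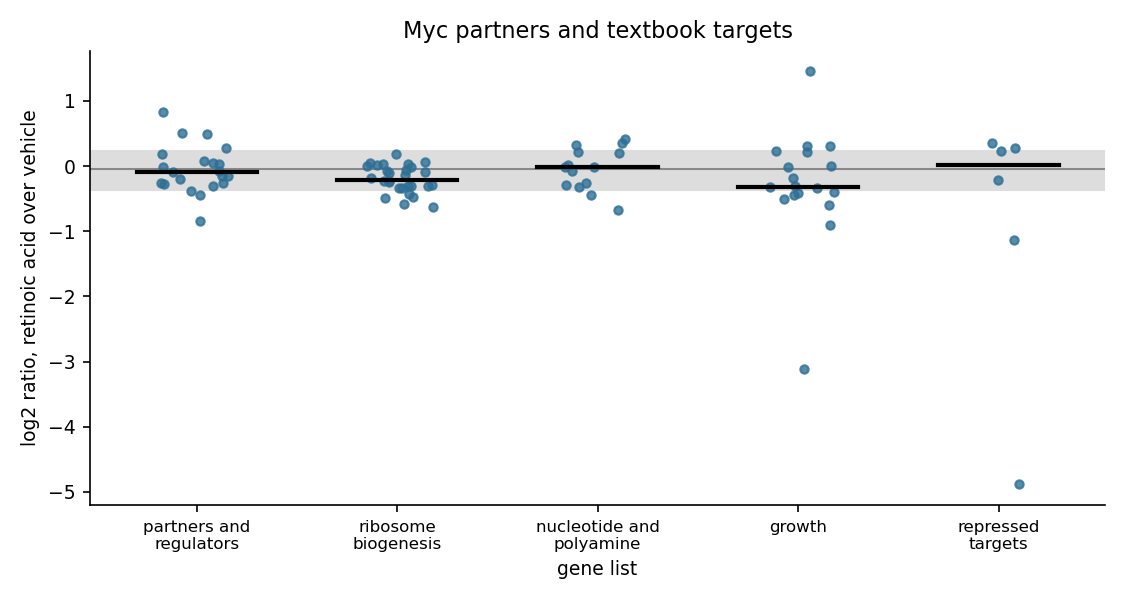
Log2 ratio of retinoic acid over vehicle for the genes of 5 lists of network partners and Myc targets, each point 1 gene, with the list's median. Medians lie between -0.32 and 0.02 beside -0.04 over all genes, and Cdc25a (1.45), Ccnd2 (-3.11), Ndrg1 (-1.13) and Cdkn2b (-4.88) are the genes past 2-fold.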

How the data were processed

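The authors deposited unnormalised UMI counts for each gene in each cell. Per the file headers they come from Cell Ranger 4.0.0, with the builds mm10 and GRCm38.p4 per the submitters' processing notes. The counting annotation and the cell calling rule are not given in the sources used here. Cells with at least 1000 UMIs, 500 genes and at most 10% mitochondrial UMIs were kept. No doublet caller was run, and the 5% of cells richest in UMIs were left out in an alternative. Counts were summed per library or group of cells. Log2 ratios had 0.5 added to each sum and carry an exact binomial interval conditional on both sums. Shares carry Clopper-Pearson and their differences Newcombe intervals, all at 95%. Phases were called with scanpy 1.11.5 on cells thinned to 5000 UMIs, TMM factors came from edgeR 4.0.16, and coordinates from GENCODE M21 (32158 of 32285 genes matched by identifier). The calculation was tested on simulated data. Groups under 50 cells were not reported.

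The members and lists were chosen with earlier results of these data known. Named genes were the 9 members, the 3 highest and 3 lowest of each pathway list at 20 CPM or more, and the 3 genes most similar to each member at 10 CPM or more. The alternatives varied the scaling, the weight of cells, the cell filter, the total, the CPM limit, the thinning, the phase calls and the granule classes. 5 alternatives were chosen after seeing the data: 2 without cells of at most 0.1% mitochondrial UMIs, 2 without cells with at least 1 eosinophil marker UMI per 1000, and the mean over all possible thinnings.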

Additional observations from a re-analysis of the deposited data

How the results depend on the processing

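Of 320 alternative values of 54 results, 259 stayed within the allowed range around the reported value (its counting interval, or 1.5 times for a count), 57 left it, and 4 more changed sign although the reported interval excluded 0. In all, 19 values changed sign, among them the Myc-positive differences below. TMM scaling gave log2 ratios between the libraries of 0.041 for Myc, which changed sign, 0.45 for Max, -0.13 for Mxd4 and 0.56 for Mxi1. Leaving granule genes out of the total gave 0.054 for Myc, which also changed sign, 0.46 for Max, -0.12 for Mxd4 and 0.58 for Mxi1. Equal weight for every cell gave 1.60 for Mxd1, 0.74 for Mxd3, -0.25 for Mxd4 and 0.54 for Mxi1, and removing the 5% deepest cells gave -0.25 for Mxd4. Genes at least 2-fold higher and lower numbered 305 and 618 at a limit of 5 CPM, 168 and 280 at 20 CPM, and 2063 and 4018 with no limit. The share of Myc-positive cells differed by -2.25 percentage points at 3000 UMIs, -1.57 at 10000, -1.06 with another random thinning and -1.22 over all thinnings, in place of 0.935, and that of Mxd1 by 7.18 at 3000 and 11.6 at 10000 UMIs.

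With cells ranked by cycle list share, the highest 25% over the lowest 25%, G2/M over G1 in the vehicle became -1.08 for Mxd1 and 0.056 for Myc, which changed sign. At 3000 UMIs it was 5.01 for Mxd3. For granule share, top over 0.2 to under 1%, Myc gave -0.45 with S100a8 and S100a9 in the list, -0.50 with granule genes out of the total, -0.91 between the highest and lowest 25% of cells by share and -1.06 at vehicle phase shares. Mxd1 gave 2.31 both with granule genes out of the total and between those ranked cells, and Max changed sign to 0.093 with granule genes out of the total. The cause of these moves was not tested. No paired analysis was possible because the groups had 1 library apiece. The single library per group limits every value, and for Mycn and Mycl the depth sets the upper limit.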
